A study of Homo sapiens with 4 samples.

Results

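Molecular chaperones were profiled in HepG2 cells with and without berberine, a plant alkaloid. The genes described here are the heat shock proteins and J proteins whose platform gene symbol began with DNAJA, DNAJB or DNAJC and a number, or had an HSPA, HSPB, HSPD, HSPE, HSPH or HSP90 stem and ended in a digit. The name pattern found 65 of the 17778 genes measured, on 83 of the 26423 probes. It also took in HSPBP1 and HSPBAP1, which bind heat shock proteins and are not chaperones of those families. For HSPA8, HSPD1 and HSP90AA1, 3 well known members of the families, no named probe was used here.

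The series asked how berberine affects the viability of HepG2, an established hepatocellular carcinoma line. There were 2 control samples without berberine and 2 samples given 26.95 µM berberine, and the stated treatment lasted 24 hours. All 4 came from cells grown in DMEM with serum and antibiotics, and total RNA was hybridised as Cy5-labelled amplified RNA on one-colour arrays. The description field of the same samples instead speaks of a differentiation cocktail called MDI and 48 hours, with 13.47 µM berberine. The titles, source names and treatment text were followed, and the conflict was not resolved. The labels do not say that replicates were grown apart. The p-values below therefore cover only how far these samples scattered, and that scatter could be technical.

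HSP70 proteins hold and release unfolded protein in a cycle driven by ATP. J proteins deliver the client and switch on the ATPase through a conserved J domain, and HSP90 takes over late folding steps. Small heat shock proteins bind unfolding clients without ATP. Each compartment has its own machinery, with HSPA5 (BiP) and HSP90B1 (GRP94) in the endoplasmic reticulum (ER) and HSPA9 (mortalin) and the HSPD1-HSPE1 chaperonin in mitochondria. Some cytosolic members are known as targets of the factor HSF1, and some ER members as targets of the unfolded protein response. By textbook location, 32 of the 65 genes were placed in the cytosol or nucleus, 13 in the ER and 7 in mitochondria, and 13 elsewhere or in no assigned place. These places were set by hand and decide the compartment medians below, and other placements were not tried.

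The probe identifiers and many gene names were those of a mouse array, while the labels give human cells. A signal under a name is therefore no direct measure of the human transcript. Signals of different probes were ranked to choose probes and genes, and compared with a background reference. They were not read as relative amounts of transcript. All signals below are quantile normalised values as log2(value + 1). Probes named for 528 olfactory receptor genes gave a background reference, with a median of 6.05 and a 95th percentile of 9.24. Of the 65 chaperone genes, 8 had a mean signal above that percentile and 18 lay below the olfactory receptor median. Of 10 listed hepatocyte markers 7 were measured, with means of 4.75 to 8.35, and 0 lay above 9.24. The same count was 0 of 6 adipocyte, 0 of 5 fibroblast and 0 of 4 macrophage markers, so the labelled cell type could not be read from these markers. Summed linear signals of the hepatocyte list were 907.5 to 956.75 in the controls and 868 to 879.5 with berberine, and of the macrophage list 573.5 to 598.5 and 698.75 to 711.5. For adipocyte markers the sums were 883 to 931.875 and 820.625 to 830, and the part of these shifts in the results below was not tested. Deposited medians were 62 to 90 intensity units per sample. Pearson's r across genes, which are not independent replicates, was 0.965 between the controls, 0.973 between the berberine samples and 0.957 to 0.966 across groups.

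The human promoters of 5 members are shown with any exact match to elements known to induce some cytosolic and ER members. The words no match cover only this exact spelling in the bases shown, and other forms of the elements were not searched there. They come from RefSeq on build GRCh38.p14 and hold the bases before the gene's start that no neighbouring gene overlaps, with matches in capitals. The ER stress response element was searched as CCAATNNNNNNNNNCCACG and the heat shock element as 3 alternating units, GAANNTTCNNGAA or TTCNNGAANNTTC, on both strands.
HSPA5, ER stress response element, chr9:125241344-125241593, minus strand: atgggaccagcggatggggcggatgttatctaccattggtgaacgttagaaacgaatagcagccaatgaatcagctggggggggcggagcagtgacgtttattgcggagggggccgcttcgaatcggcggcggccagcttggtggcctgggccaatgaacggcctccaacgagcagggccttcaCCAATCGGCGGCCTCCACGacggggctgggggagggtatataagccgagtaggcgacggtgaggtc
HSP90B1, ER stress response element, chr12:103930212-103930409, plus strand: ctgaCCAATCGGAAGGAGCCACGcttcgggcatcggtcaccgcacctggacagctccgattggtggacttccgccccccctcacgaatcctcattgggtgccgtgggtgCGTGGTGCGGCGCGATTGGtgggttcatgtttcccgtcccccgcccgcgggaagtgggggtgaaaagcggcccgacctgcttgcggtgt
DNAJB11, no match, chr3:186570544-186570719, plus strand: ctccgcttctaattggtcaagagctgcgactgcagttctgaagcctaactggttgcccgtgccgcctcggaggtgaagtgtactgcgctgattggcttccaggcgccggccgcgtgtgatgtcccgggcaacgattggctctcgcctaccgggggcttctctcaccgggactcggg
HSP90AB1, heat shock element, chr6:44247693-44247942, plus strand: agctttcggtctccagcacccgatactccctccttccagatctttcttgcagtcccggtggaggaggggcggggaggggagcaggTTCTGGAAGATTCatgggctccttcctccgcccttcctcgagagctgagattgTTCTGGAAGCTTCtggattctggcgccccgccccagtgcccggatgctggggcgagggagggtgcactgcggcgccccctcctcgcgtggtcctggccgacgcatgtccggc
HSPE1, no match, chr2:197500275-197500378, plus strand: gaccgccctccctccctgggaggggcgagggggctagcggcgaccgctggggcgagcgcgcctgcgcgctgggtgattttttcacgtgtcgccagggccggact
The HSPE1 stretch is the whole 104 bases between its start and that of HSPD1, which is transcribed the other way.

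Promoters were on file for 58 of the 65 members, by current symbol for 64 of the names and an older one for 1. In the 250 bases before the start, the ER stress response element was found in 26 of 35116 promoters (0.0740%) and in 2 of the 58 members, HSPA5 and HSP90B1. In HSPA5 it began 66 bases before the start, and in HSP90B1 it was found at 194 and 89 bases. The heat shock element of 3 units was in 0.441% of promoters and in 2 members, HSP90AB1 and DNAJB6. A shorter form of 2 units, GAANNTTC or TTCNNGAA, which the longer one contains, was in 11.6% of promoters and in 12 members (20.7% of 58). For all these elements a member was counted if any of its promoters matched. Shares of members and of promoters are therefore not in the same unit. Of these 12 genes 6 read higher and 6 lower with berberine, with a median log2 difference of -0.020. A match describes letters and is no proof of a working site.

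None of the 65 chaperone genes passed limma's test at an adjusted p of 0.05, where 9 of all 17778 genes did (0.0506%). The smallest adjusted limma p among them was 0.144, for DNAJC24. When limma's prior variance was allowed to follow signal (the trend), or with its robust option, the count of members was also 0, against 1.46% and 0.0506% of all genes. At an unadjusted limma p under 0.05 there were 9 members of 65 (13.8%), against 13.0% of all genes, so the share was near the background. Of these 9, 6 read higher (background 6.68% of all genes) and 3 lower (6.36%). Both berberine samples lay on one side of both controls for 30 members (46.2%), against 45.0% of all genes. In 16 of them berberine was higher (21.7% of all genes) and in 14 lower (23.3%). The median log2 difference was -0.012 over the members and -0.0091 over all genes, and the median absolute difference 0.19 and 0.18. An exact permutation test of a single gene in this design cannot go below 0.333.

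**Figure D1:**
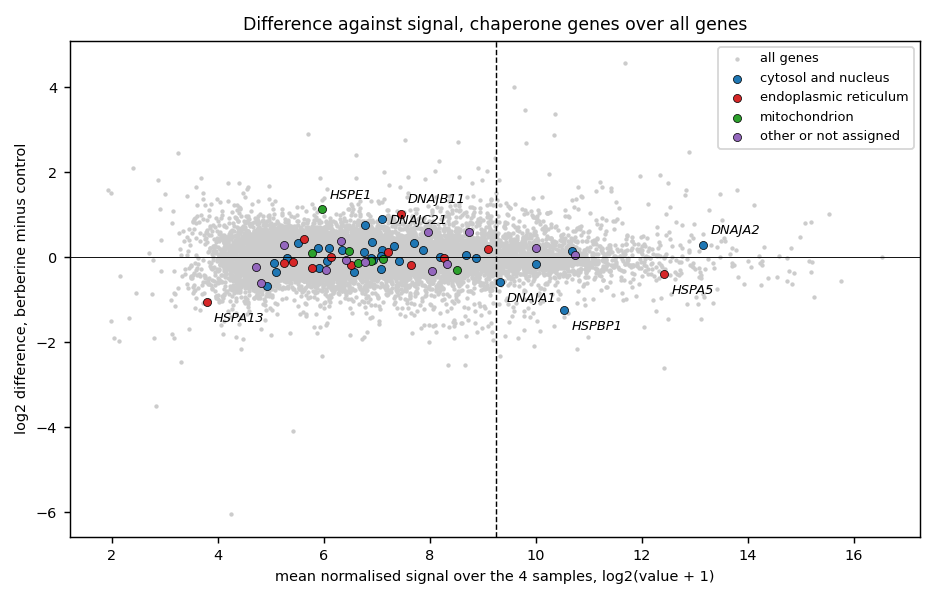
Log2 difference (berberine minus control, vertical) against mean normalised signal over the 4 samples (horizontal, log2(value + 1)), with all genes in grey, the 65 chaperone genes coloured by compartment and a dashed line at 9.24, the olfactory receptor 95th percentile. Chaperone genes lie within the grey cloud, from -1.24 for HSPBP1 to 1.12 for HSPE1.

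Among cytosolic HSP70, HSP110 and HSP90 genes, mean signals were in the background range below 9.24, and differences ran from -0.02 to 0.35. HSPH1, an HSP110 that recharges HSP70 with ATP, read 5.44 and 5.17 in the controls and 5.50 and 5.08 with berberine, a difference of -0.02 with an SE of 0.21. HSP90AB1, the constitutive cytosolic HSP90, read 6.95 and 6.51 in the controls and 6.88 and 7.29 with berberine. Its groups overlapped, at a difference of 0.35 with an SE of 0.24 (limma adjusted p = 0.576), or 0.14 without control 2 and 0.15 without berberine 2. HSPA4, another HSP110, differed by -0.0091, and HSPA2, an HSP70 best known from the testis, by 0.27. In both HSPA4 and HSPA2 the groups did not overlap, as in 45.0% of all genes.

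DNAJA2, a class A J protein that works with HSP70 in refolding, had a probe well above the olfactory receptor range. It read 12.98 and 13.04 in the controls and 13.30 and 13.28 with berberine, or 9316, 8194, 8664 and 10329 as deposited intensities. The normalised groups did not overlap, while the deposited ones did. The difference was 0.28 with an SE of 0.11 (limma adjusted p = 0.395, with the trend 0.149), and it was 0.11 for values as deposited and 0.0014 with median centring. DNAJC7, which binds both HSP70 and HSP90, read 10.60 in both controls and 10.95 and 10.53 with berberine, so its groups overlapped.

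DNAJC24, a J protein of diphthamide synthesis, had the smallest p-value of the family. It read 6.42 and 6.36 in the controls and 7.17 and 7.14 with berberine, higher in both treated samples by 0.77 on average (SE 0.11, limma adjusted p = 0.144, with the trend 0.0633). The mean of its probes gave 0.49. DNAJC21, which takes part in ribosome assembly, read 6.30 and 6.99 in the controls and 7.60 and 7.51 with berberine. That is a difference of 0.91, with an SE of 0.27 and a limma adjusted p of 0.331, and it was 0.57 without control 1 and 0.58 for the mean of its probes. DNAJB4, a class B partner of HSP70, went the other way, at 5.16 and 5.38 in the controls and 4.67 and 4.49 with berberine. Its difference was -0.69 (SE 0.14, limma adjusted p = 0.247), but -0.20 without normalization, -0.32 after median centring and -0.26 with a pseudocount of 50. All of these means lay below 9.24, within the range of olfactory receptor probes.

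DNAJB1, the J protein best known for its induction by heat, read 6.65 and 6.74 in the controls and 6.97 and 6.69 with berberine, and the groups overlapped. HSPB1 (HSP27), a small heat shock protein, read 6.19 and 5.88 in the controls and 5.91 and 5.65 with berberine. HSPB8, a small heat shock protein that works with BAG3 in selective autophagy, read 7.61 and 7.94 in the controls and 7.92 and 7.98 with berberine. In each of these the ranges of control and berberine samples overlapped, with differences of 0.13, -0.26 and 0.18. The HSPB1 value was -0.086 without normalization and -0.10 without control 1. Over all compartments, 8 measured genes were grouped only by an HSPB name followed by a number. Of these 8, 6 read lower and 2 higher, with a median of -0.24. In 1 gene (12.5%) the groups did not overlap, against 45.0% of all genes. Among the 6, HSPB7 was at -0.0031, and a second probe of HSPB2 read 1.17. At an unadjusted limma p under 0.05 there were 0 of these 8 genes, against 13.0% of all genes.

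**Figure D2:**
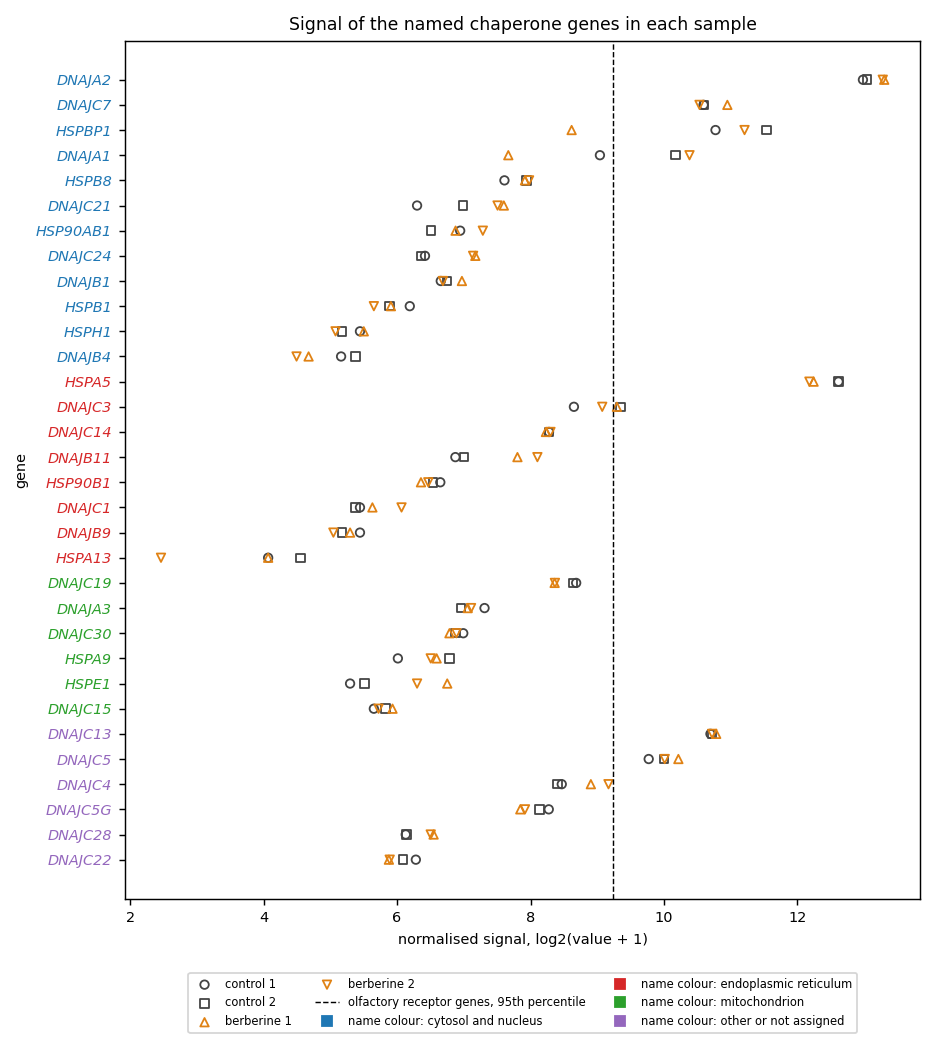
Normalised signal, log2(value + 1), of the 32 named chaperone genes in each of the 4 samples, with gene names coloured by compartment. DNAJA2 and HSPA5 lie far to the right of the dashed line at 9.24 with little spread, while DNAJA1 and HSPBP1 show berberine 1 far to the left of berberine 2.

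DNAJA1 and HSPBP1 had the widest gaps between the berberine samples of all members. DNAJA1, a class A J protein that assists HSP70, read 9.04 and 10.18 in the controls and 7.67 and 10.38 with berberine. HSPBP1, which releases ADP from HSP70, read 10.77 and 11.54 in the controls and 8.62 and 11.21 with berberine. In both the low value was berberine 1, which lay 2.72 and 2.59 below berberine 2. Among the 1626 genes above 9.24, control samples were more than 2 apart in 5. Berberine samples were more than 2 apart in 7, all with berberine 1 lower, and DNAJA1 and HSPBP1 were 2 of these 7. The other 5, named after their values were seen, were TAC2, LRRK1, PARVG, ZMIZ1 and TUSC2, and in all 7 control 1 also read below control 2. The mean differences of -0.58 for DNAJA1 (SE 1.04, limma adjusted p = 0.834) and -1.24 for HSPBP1 (SE 0.96, 0.621) rested on berberine 1, and without it they were 0.78 and 0.053. The part of the single array in these values was not tested.

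The 1 ER gene with a mean above 9.24 was HSPA5 (BiP), the HSP70 of the ER lumen whose rise is the usual sign of an unfolded protein response. It read 12.62 in both controls and 12.24 and 12.18 with berberine, or 7146, 5883, 4237 and 4859 as deposited. Both treated samples lay below both controls on either scale, by 0.40 on the log2 scale (1.32-fold, SE 0.11). The call was not made by limma (adjusted p = 0.305, with the trend 0.0750), while the sign was negative in all 13 other settings, from -0.63 to -0.37. HSP90B1 (GRP94), the ER member of the HSP90 family, read 6.65 and 6.54 in the controls and 6.36 and 6.47 with berberine. Its difference of -0.18 (SE 0.12, limma adjusted p = 0.574) came from signals in the background range.

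Differences of the ER J proteins had both signs, and none passed limma's test. DNAJB11 (ERdj3), a secreted and lumenal partner of HSPA5, read 6.87 and 7.00 in the controls and 7.80 and 8.10 with berberine, a difference of 1.02 (SE 0.16, limma adjusted p = 0.166, with the trend 0.0596). Its other probes read 0.23 and -0.30, and the mean of all 3 gave 0.31. DNAJB9 (ERdj4), which restrains the sensor IRE1, read 5.44 and 5.17 in the controls and 5.29 and 5.04 with berberine. DNAJC3 (p58IPK), which restrains the kinase PERK, read 8.65 and 9.35 in the controls and 9.30 and 9.08 with berberine. Groups overlapped in both DNAJB9 and DNAJC3, with differences of -0.14 and 0.19, and in both the sign turned without normalization and after median centring. DNAJC1, a membrane J protein that binds ribosomes, read 5.44 and 5.38 in the controls and 5.63 and 6.07 with berberine, at a difference of 0.44. Without berberine 2 that was 0.22, with a pseudocount of 50 also 0.22, and without normalization 0.73. DNAJC14, an ER membrane protein known to help surface receptors leave the ER, read 8.28 in both controls and 8.23 and 8.30 with berberine. HSPA13, an HSP70 of microsomes, read 4.07 and 4.55 in the controls and 4.07 and 2.46 with berberine, near the floor of the scale and with overlapping groups. Its difference of -1.05 was -0.24 without berberine 2, -1.85 without berberine 1 and -0.096 without normalization.

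Of the mitochondrial genes, HSPE1 stood out in size. HSPE1 encodes HSP10, the lid of the matrix chaperonin, and read 5.29 and 5.51 in the controls and 6.75 and 6.30 with berberine. Both treated samples were higher, by 1.12 on average (2.18-fold, SE 0.20, limma adjusted p = 0.209, with the trend 0.108), and by 0.63 with a pseudocount of 50. The deposited intensities were 48, 31, 98 and 84, and the mean of 5.96 lay below the olfactory receptor median. Its partner HSPD1, encoded head to head with it, was not analysed here. HSPA9 (mortalin), the HSP70 of the import motor, read 6.01 and 6.78 in the controls and 6.59 and 6.50 with berberine.

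The other mitochondrial genes are J proteins. DNAJC19, which stimulates the HSP70 of the import motor at the inner membrane, read 8.68 and 8.64 in the controls and 8.36 and 8.37 with berberine. The groups did not overlap, at a difference of -0.30 (SE 0.11, limma adjusted p = 0.38), or -0.46 without normalization and -0.57 after median centring. DNAJA3 (TID1), the class A J protein of the matrix, read 7.31 and 6.96 in the controls and 7.06 and 7.11 with berberine. DNAJC15, a relative of DNAJC19, and DNAJC30, which is linked to complex I, had differences of 0.087 and -0.097 with overlapping groups. DNAJC11, an outer membrane protein tied to the cristae organising complex, differed by -0.13.

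Genes not placed in the 3 main compartments included the vesicle and endosome J proteins. DNAJC5, the cysteine string protein of secretory vesicles, read 9.77 and 10.00 in the controls and 10.22 and 10.01 with berberine, a difference of 0.23 with an SE of 0.15. DNAJC13, an endosomal protein, read 10.70 and 10.72 in the controls and 10.78 and 10.72 with berberine. Its difference of 0.04 was -0.20 without normalization and -0.31 after median centring. DNAJC4, a little studied J protein, read 8.47 and 8.40 in the controls and 8.91 and 9.17 with berberine, a difference of 0.60 (SE 0.14, limma adjusted p = 0.271), or 0.31 after median centring. DNAJC28 differed by 0.39, DNAJC5G by -0.32 and DNAJC22 by -0.30, each with groups that did not overlap and adjusted limma p-values of 0.307 to 0.414. With a pseudocount of 50 DNAJC28 was at 0.24 and DNAJC22 at -0.17, and after median centring DNAJC5G was at -0.57.

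Set side by side, the compartments had median log2 differences of 0.016 in the cytosol and nucleus, -0.11 in the ER and -0.051 in mitochondria, against -0.0091 over all genes. The SD of the group medians between replicates was 0.080, 0.079 and 0.094. In the cytosol 16 genes read higher and 16 lower, in the ER 4 and 9, and in mitochondria 3 and 4. Groups did not overlap for 13 of 32, 8 of 13 and 2 of 7 genes, where 45.0% of all genes did so. By direction these were 8 higher and 5 lower in the cytosol, 3 and 5 in the ER, and 1 and 1 in mitochondria. Over all genes, 21.7% lay apart with berberine higher and 23.3% with berberine lower. No test of one compartment against another was made, and these values hold only for the genes as placed here. The genes with means above 9.24 numbered 5 in the cytosol, 1 in the ER and 0 in mitochondria, so the mitochondrial values all came from dim probes.

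**Figure D3:**
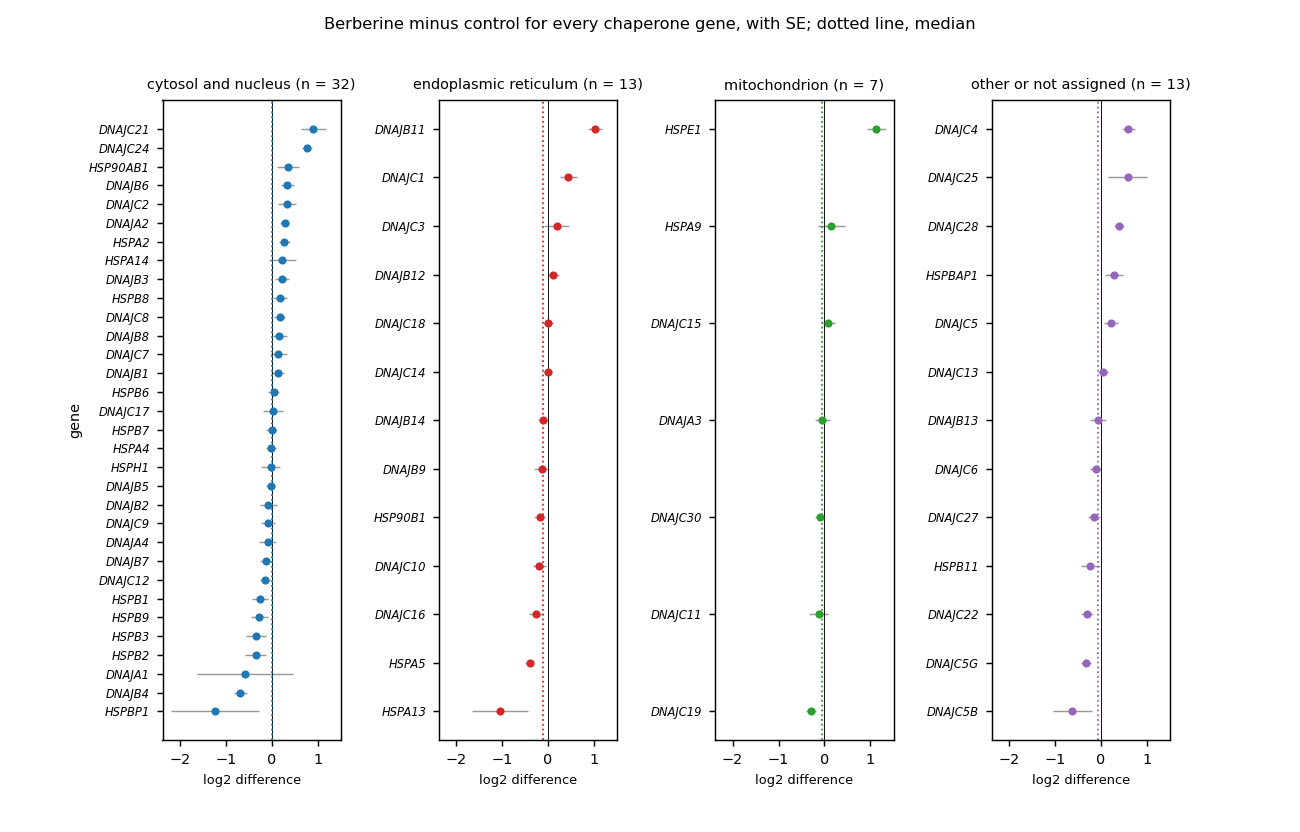
Log2 difference, berberine minus control, with its SE for all 65 chaperone genes in 4 panels by compartment, each with its median as a dotted line. The medians of the 3 main compartments, 0.016, -0.11 and -0.051, lie close to 0, and DNAJA1, HSPBP1 and HSPA13 have the widest errors.

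Where a gene had several probes, they gave a check of how far its name can be read. There were 16 such members, 14 with 2 probes and 2 with 3, and the second probe had the sign of the brightest in 10 of 16 (62.5%). None of the second probes had a mean above 9.24. DNAJA2 had a dim second probe at -0.19 and DNAJA1 one at 0.24, each opposite to the brightest probe. For DNAJC24 and DNAJC21 the second probe had the same sign, at 0.22 and 0.25, and DNAJC19 gave -0.30 and -0.19. For HSPB2 the probes read -0.35 and 1.17.

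**Figure D4:**
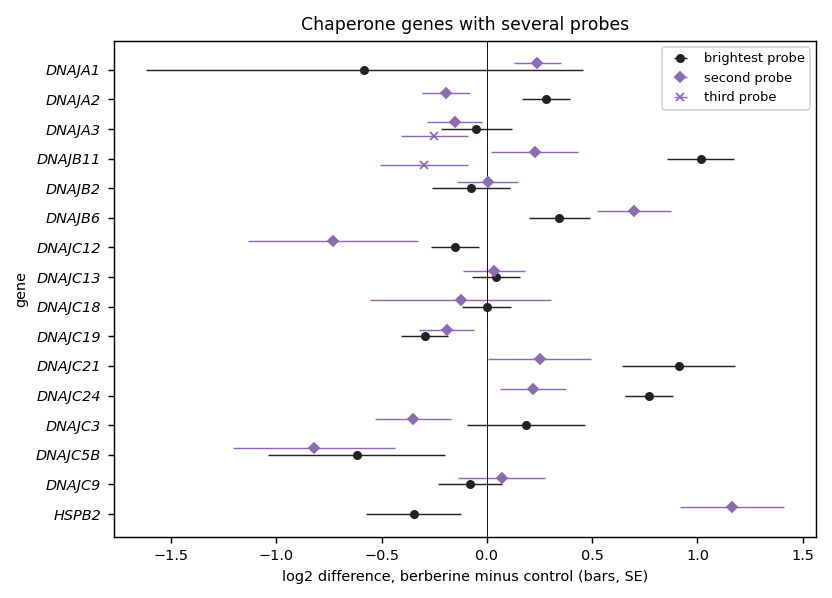
Log2 difference, berberine minus control (horizontal, bars are SEs), for every probe of the 16 chaperone genes with several probes. The second probe lies on the same side of 0 as the brightest in 10 genes, and the DNAJB11 probes spread from -0.30 to 1.02.

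Genes that work with these chaperones were taken from 4 lists, of which 92 genes were measured. None passed limma's main test (0.0506% of all genes), and 17 had an unadjusted limma p under 0.05 (18.5%, against 13.0% of all genes), 11 higher (6.68%) and 6 lower (6.36%). The robust option gave 0, and 4 genes passed with the trend (1.46% of all genes). They were ST13 and ATF4, which rose by that test, and PHB and SPG7, which fell. The means of ST13 and ATF4, 8.56 and 8.05, lay below 9.24, within the range of olfactory receptor probes.

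Of 29 heat shock factors and co-chaperones, ST13 (HIP), which steadies the HSP70 complex, was the 1 past the trend test. It read 8.15 and 8.03 in the controls and 8.92 and 9.15 with berberine, a difference of 0.94 (SE 0.14, limma trend adjusted p = 0.0445, main 0.157). The list's median was 0.053, with 3 genes higher and 0 lower at an unadjusted limma p under 0.05 (10.3% of the list, against 13.0% of all genes). HSF1, the master factor of the heat shock response, read 11.42 and 11.60 in the controls and 11.66 and 11.71 with berberine, 0.17 higher with an SE of 0.12, and it was named after its values were seen. Of 30 genes of ER folding and the unfolded protein response, the transcription factor ATF4 passed the trend test. Its difference was 0.99 (limma trend adjusted p = 0.0214, main 0.111). ATF4 read 7.53 and 7.58 in the controls and 8.52 and 8.56 with berberine. That list's median was 0.042, and 3 genes were higher and 0 lower at the unadjusted limma p under 0.05 (10.0% of the list, against 13.0% of all genes).

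Of 20 genes of mitochondrial import, folding and proteolysis, PHB and SPG7 passed the trend test. PHB, a subunit of the prohibitin ring of the inner membrane, read 10.26 and 10.10 in the controls and 9.27 and 9.44 with berberine, a difference of -0.82 (SE 0.13, limma trend adjusted p = 0.0454, main 0.177). SPG7 (paraplegin), a subunit of an inner membrane protease, read 11.72 and 11.51 in the controls and 10.88 and 10.82 with berberine. Its difference was -0.76 (SE 0.13, limma trend adjusted p = 0.0462, main 0.192). Both had means above 9.24, while the list's median was -0.0080, and 1 gene was higher and 4 lower at an unadjusted limma p under 0.05, where 6.68% and 6.36% of all genes were.

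The cytosolic chaperonin TRiC, a double ring that folds actin and tubulin, was covered with its delivery factor prefoldin by 13 genes. None passed the main or the trend test, and 6 of 13 had an unadjusted limma p under 0.05 (46.2%, against 13.0% of all genes), 4 higher and 2 lower (6.68% and 6.36% of all genes). Bright probes were more common in this list, with 30.8% of its genes above 9.24, against 9.15% of all genes. Of all genes above 9.24, 27.9% had an unadjusted limma p under 0.05. CCT5 read 9.61 and 9.74 in the controls and 10.27 and 10.24 with berberine, a difference of 0.58 (SE 0.11, limma adjusted p = 0.231, with the trend 0.0622). It was 0.34 without normalization and 0.22 after median centring. PFDN2, a prefoldin subunit, read 12.80 and 12.37 in the controls and 13.35 and 13.39 with berberine, at 0.78 (SE 0.19, 0.271 and 0.115), and 0.50 after median centring. All 4 genes of this list with means above 9.24 (also CCT8 at 0.44 and CCT7 at 0.50, named after their values were seen) had both berberine samples above both controls. Of all 1626 genes above 9.24, groups did not overlap for 1128 (69.4%), with berberine higher in 487. The list's median was 0.14.

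**Figure D5:**
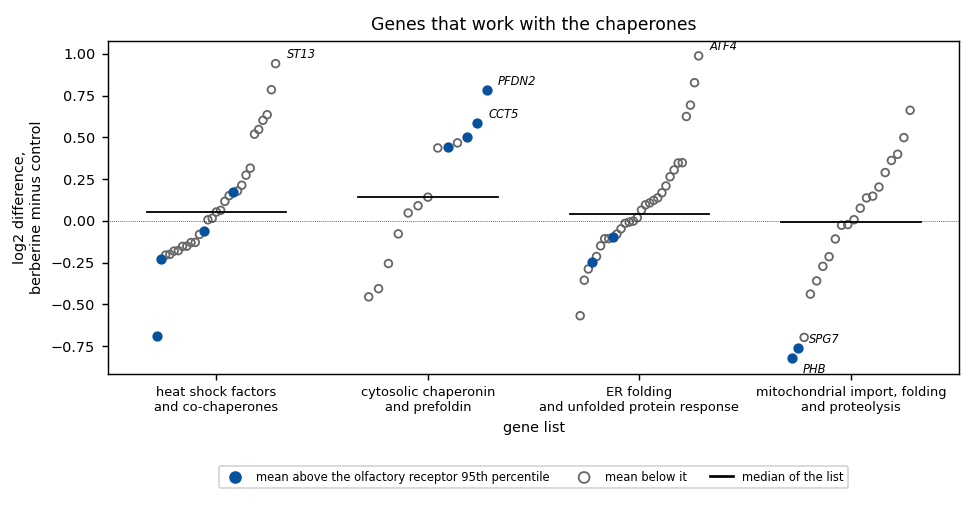
Log2 difference, berberine minus control, of the 92 measured genes in the 4 related lists, ordered by value within each list, with filled points for means above 9.24 and a bar at the median. Filled points of the chaperonin and prefoldin list lie from 0.44 to 0.78, and PHB and SPG7 lie at -0.82 and -0.76.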

How the data were processed

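The deposited table gave whole-number intensity values on a linear scale, some below 0, for 26423 probes and 4 samples. The sources used here do not give the scanner, background correction or normalization. The number of arrays limits the precision. Probes were named through the supplied platform annotation, with 6046 left unnamed and out of the test. Intensities were quantile normalised, floored at 0 and taken as log2(value + 1). The probe with the highest mean stood for each gene.

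The model was limma's (version 3.58.1, R 4.3.3), by lmFit and eBayes, 2-sided and without a block, with p-values adjusted by Benjamini-Hochberg over 17778 genes. Residual degrees of freedom were 2. The limma fit alone was also run on simulated normalised values, without the normalization or the choice of probes. The outcome of that run is not reported here. Figures used matplotlib 3.10.9.

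Named genes were, per compartment, the 4 smallest p-values and 3 highest signals, plus 17 fixed members, of which 14 had a probe. From each related list came those past either test, or else the 2 smallest p-values. Other genes named as examples or in counts were picked after their values were seen. Members and lists were chosen with earlier results of these data known. Alternatives were other scalings, filters, pseudocounts, probe rules and variance models, a replicate block and leaving out each sample.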

Additional observations from a re-analysis of the deposited data

How the results depend on the processing

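The count of members past the adjusted limma threshold was 0 in the main test and in every other setting that kept all 4 samples. In these settings 2 to 12 members had an unadjusted limma p under 0.05, and the share of all genes moved too. The 2 members with values as deposited were 3.08%, against 2.78% of all genes. The 12 members with a pseudocount of 50, and also with the trend, were 18.5%, against 14.7% of all genes. In several settings no gene of the array passed, so those zeros carry little weight. The count of all genes was 2 with values as deposited, 0 with median centring, 138 without the dimmest 30% of genes, 251 with a pseudocount of 50, 3 with each probe as its own row and 260 with the trend. It was 0 with the replicate number as a block and 0 to 0 when each sample was left out. The numbers 1 and 2 do not pair the samples in the labels, and the deviations of same-numbered samples correlated at 0.090 over all genes and 0.23 over the members. The count of related genes went from 0 to 1 without the dimmest 30% of genes, 2 with a pseudocount of 50 and 4 with the trend. The ER median moved to -0.013 with values as deposited and -0.012 without the dimmest 30%, and the mitochondrial median to -0.16 with median centring. With a sample left out the ER median ranged from -0.14 to -0.041 and the mitochondrial one from -0.15 to -0.00063.

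Of 38 named genes, 24 kept their sign in all settings run and 14 turned in some. With values as deposited and median centring the signs turned for DNAJB9 (0.20, 0.090), DNAJC13 (-0.20, -0.31), DNAJC3 (-0.013, -0.13), DNAJC5 (-0.023, -0.14), DNAJC7 (-0.11, -0.22) and HSPH1 (0.35, 0.24), and with median centring for HSPB8 (-0.064). DNAJC3 was at -0.083 with the mean of its probes. Without control 1 the turned values were 0.13 for DNAJA3, -0.00063 for DNAJC15, -0.16 for DNAJC3, -0.24 for HSPA9 and 0.12 for HSPH1. Without berberine 1 they were 0.78 for DNAJA1, -0.013 for DNAJB1, 0.022 for DNAJC14, -0.018 for DNAJC15, -0.064 for DNAJC7 and 0.053 for HSPBP1. Without berberine 2 HSPH1 was at 0.19. At the other end of their leave-one-out ranges, DNAJA1 was at -1.94, HSPBP1 at -2.54, DNAJB1 at 0.27, DNAJC14 at -0.046, DNAJA3 at -0.23, DNAJC3 at 0.53, HSPA9 at 0.54 and HSPH1 at -0.23. The causes were not tested, except that leaving out a sample removes its value. Signals near the olfactory receptor range limit 57 of the 65 members.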

Other observations

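HSP70 genes outside the name pattern were measured as well. HSPA1B, a heat-inducible cytosolic HSP70, had a mean of 8.07 in the controls and 8.22 with berberine, a log2 difference of 0.15 (SE 0.12, limma adjusted p = 0.621). Its near-identical copy HSPA1A read 5.41 and 5.20, for a difference of -0.21 (SE 0.14, limma adjusted p = 0.583). The copies can share hybridisation, so their separate values are uncertain. BAG3, a co-chaperone known as an HSF1 target, differed by 0.64 (SE 0.24, limma adjusted p = 0.397), at a mean of 4.53. These genes were named after their values were seen.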
